A study of Mus musculus with 6 samples.

Results

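The cytosolic chaperonin TRiC, also called CCT, is built from 8 related subunits, encoded by *Tcp1*, *Cct2*, *Cct3*, *Cct4*, *Cct5*, *Cct6a*, *Cct7* and *Cct8*. These 8 genes were chosen by name from the 54838 genes of the count table. The rule uses no measured value, but the list was drawn up with earlier results of these data known. RNAseq was performed on sorted murine acute myeloid leukemia (AML) cells of the I1DN model from 3 Vehicle and 3 AG636 mice. AG636 inhibits DHODH, a mitochondrial enzyme of *de novo* pyrimidine synthesis, and was given orally b.i.d. at 100 mg/kg. All 6 samples share the C57BL/6 background and the labelled genotype IDH1R132H, DNMT3AR882H and NrasG12D, which was introduced by transduction of HSPCs from fetal liver. The leukemias grew in sublethally irradiated congenic *Ptprca* recipients, so Vehicle animals carried the same alleles, conditioning and leukemia. Treatment lasted a single day by the study's description of these libraries, while the labels give neither its duration nor the age of the animals. Cells were sorted from bone marrow and spleen as positive for cKit and negative for CD11b (cKit high and CD11b low in the study's methods), and the labels do not say which organ each library came from. Recipients were engrafted with thawed leukemia cells of a moribund mouse, so the spread between mice is that between recipients.

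TRiC is an ATP-dependent folding machine made of a pair of stacked rings, in each of which every subunit has its own fixed place. Unfolded proteins enter the central cavity, often handed over by prefoldin, and are released once the cavity has closed and the substrate has folded. Actin and tubulin are its best known substrates, and cell cycle regulators with WD40 repeats such as CDC20 also depend on it. A growing cell therefore needs TRiC to turn newly made chains into a cytoskeleton and a working cell cycle machinery.

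Libraries held between 4634963 and 7906589 counts. Transcripts were captured at their end, so the counts of a gene are not expected to grow with the length of its transcript. CPM, the scale of all levels here, sets the counts of every library to a common size with TMM factors. Of 3 genes expected in the sorted immature gate (*Kit*, *Cd34* and *Ptprc*), 1 was higher with AG636, *Ptprc*, and their summed level was 229.8 to 331 CPM with Vehicle and 374 to 450.02 with AG636. *Kit* had 31.8 to 43.1 CPM with Vehicle and 37.3 to 46.3 with AG636. Neither *Kit* nor *Cd34* was called (adjusted p = 0.550 and 0.161 in edgeR's quasi-likelihood test). *Itgam*, the CD11b gene, had 12.1 to 27.0 CPM with Vehicle and 31.3 to 60.1 with AG636. Some markers of other cells also differed between the groups, while 10.3% of all genes tested were called higher and 11.0% lower. Of 8 mature neutrophil markers, 6 were higher with AG636 and 0 lower (edgeR's quasi-likelihood test, adjusted p under 0.05), and their summed level was 1019, 2088 and 2345 CPM in the Vehicle mice against 5842, 3077 and 2849 CPM in the AG636 mice. Of 7 macrophage markers 2 were higher, with a summed level of 47.8 to 65.6 CPM against 128 to 157 CPM. Among 5 megakaryocyte and platelet markers 4 were tested and 2 were higher (774 to 1207 CPM in sum against 1045 to 1699). In that list *Ppbp* went the other way, with a log2 fold change of -0.74 (adjusted p = 0.0534 in edgeR's quasi-likelihood test). Of 8 erythroid markers 2 were lower (1649 to 4707 CPM in sum against 1946 to 3236), while *Hbb-bs* had a log2 fold change of 0.11. The summed ranges of both lists overlapped between the groups. Of 6 B cell markers 2 had enough counts to be tested and 0 were called, with a summed level of 13.4 to 26.9 CPM against 29.1 to 43.7. Of the 6 T cell markers 0 could be tested, and they summed to at most 3.96 CPM in any library. The part of any of these cells in the results was not tested. In bulk libraries, fewer cells of a type and less RNA per cell cannot be told apart.

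All 8 subunit transcripts were lower with AG636. Their log2 fold changes ran from -0.88 for *Cct6a* to -0.45 for *Cct2*, with a median of -0.68 against 0.03 over all genes tested. Each of the 8 passed the threshold in edgeR's quasi-likelihood test (Benjamini-Hochberg adjusted p from 0.00320 to 0.0318), while 11.0% of the 11092 genes tested were called lower and 10.3% higher. In counts, 1222 genes were lower and 1146 higher, and with library size alone in place of TMM 913 were lower and 1483 higher. Among the 954 genes at least as abundant as the least abundant subunit, the share called lower was 25.6%. For all 8 subunits every AG636 mouse lay under every Vehicle mouse, which held in this direction for 20.6% of all genes tested, in the other for 20.5% and in either for 41.1%. For each subunit the exact permutation test of CPM gave a two-sided p of 0.1, the smallest that 3 mice against 3 allow. The 8 subunits together took 0.417%, 0.402% and 0.398% of all counts in the Vehicle mice and 0.267%, 0.291% and 0.239% in the AG636 mice.

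**Figure D1:**
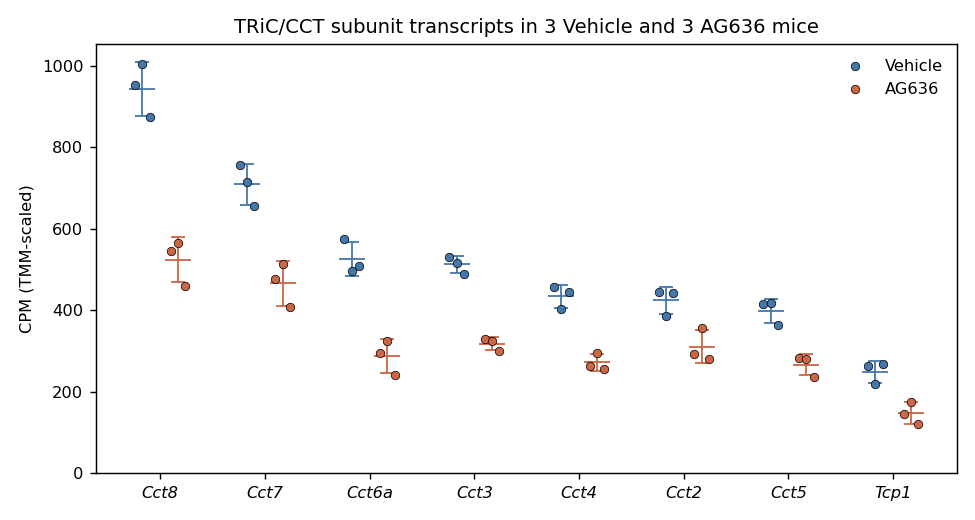
CPM of each TRiC/CCT subunit in each mouse (y axis, TMM-scaled, linear from 0), with the subunits ordered by their Vehicle mean. Points are mice, horizontal marks are group means and bars are SD (n = 3 per group), and no AG636 point reaches the lowest Vehicle point of the same subunit.

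The promoters of the subunits with the largest decrease (*Cct6a*), the highest level (*Cct8*) and the smallest decrease (*Cct2*) are shown here, since the members moved together. Each window runs from 250 bases before to 50 bases after a RefSeq transcript start on GRCm38.p6, written 5′ to 3′ on the strand of the gene. Capitals mark GC boxes (GGGCGG on either strand) and cores of the heat shock element (GAANNTTC or TTCNNGAA).
Cct6a (chr5:129787106-129787405, + strand): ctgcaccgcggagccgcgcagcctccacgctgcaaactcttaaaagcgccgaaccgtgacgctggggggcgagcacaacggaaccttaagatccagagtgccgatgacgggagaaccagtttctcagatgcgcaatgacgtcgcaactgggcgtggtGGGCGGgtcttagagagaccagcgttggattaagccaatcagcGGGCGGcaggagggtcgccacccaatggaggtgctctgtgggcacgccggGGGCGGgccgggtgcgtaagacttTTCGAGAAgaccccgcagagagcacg
Cct8 (chr16:87495820-87496119, - strand): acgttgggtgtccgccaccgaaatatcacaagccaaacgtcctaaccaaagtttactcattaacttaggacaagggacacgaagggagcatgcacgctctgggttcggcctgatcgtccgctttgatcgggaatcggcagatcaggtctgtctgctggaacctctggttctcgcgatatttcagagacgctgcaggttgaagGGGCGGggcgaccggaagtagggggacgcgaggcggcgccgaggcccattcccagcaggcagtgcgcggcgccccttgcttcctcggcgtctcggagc
Cct2 outer window (chr10:117063803-117064102, - strand): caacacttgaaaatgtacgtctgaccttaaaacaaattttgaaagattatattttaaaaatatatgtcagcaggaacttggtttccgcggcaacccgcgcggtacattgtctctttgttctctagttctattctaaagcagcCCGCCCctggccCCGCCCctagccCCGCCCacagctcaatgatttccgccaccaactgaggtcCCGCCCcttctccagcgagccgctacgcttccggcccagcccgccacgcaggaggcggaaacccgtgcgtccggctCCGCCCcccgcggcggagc
Cct2 inner window (chr10:117063326-117063625, - strand): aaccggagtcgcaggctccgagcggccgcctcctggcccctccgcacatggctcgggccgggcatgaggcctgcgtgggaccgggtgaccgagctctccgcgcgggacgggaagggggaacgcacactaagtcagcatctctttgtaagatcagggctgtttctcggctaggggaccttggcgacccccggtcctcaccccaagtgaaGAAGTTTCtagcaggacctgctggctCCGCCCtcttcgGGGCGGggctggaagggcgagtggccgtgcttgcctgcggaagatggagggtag

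RefSeq gave windows for 7 of the 8 members, 9 windows in all, and none for *Cct4*. A GC box, the recognition sequence of SP1, stood in a window of each of these 7 genes. By window, it was in 8 of these 9 and in 35.7% of the 32851 windows of the table. In the outer window of *Cct2*, which holds the annotated start of the gene, it occurred 5 times, and in that of *Cct6a* 3 times, without overlap between matches. The members' windows held 19 to 30 CpG dinucleotides against a median of 7 over all windows, and 28.1% of all windows held 19 or more. Heat shock element cores were found in *Cct2*, 42 bases before the inner start, in *Cct5*, 34 bases before its outer start, and in *Cct6a*, 25 bases after the start. GAANNTTC occurs in 7.86% and TTCNNGAA in 8.52% of all windows. A CCAAT box (CCAAT) was present in *Tcp1*, *Cct3*, *Cct6a* and *Cct7* (37.4% of all windows), and an ETS core (CCGGAAG) in *Tcp1*, *Cct2* and *Cct8* (8.86%). *Cct2* alone held the YY1 core AAGATGG (6.34%). The E-box CACGTG (7.15% of all windows), the cAMP response element TGACGTCA (1.79%) and the TATA box TATAAA (13.6%) were in none of the 9 windows. Both strands were searched for every motif. These matches describe the letters of the windows only.

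The theta subunit gene *Cct8* was the most abundant and had the lowest adjusted p of the 8. It (ENSMUSG00000025613) lies on chromosome 16 from 87483326 to 87495873 of mm10, on the minus strand. The Vehicle mice had 954, 1004 and 874 CPM, and the AG636 mice had 546, 564 and 460.4 CPM. The lowest Vehicle value was 1.55 times the highest AG636 value, the widest gap among the subunits. Its log2 fold change was -0.85 (standard error, SE, 0.12, edgeR's quasi-likelihood test, adjusted p = 0.00320), a fall of 44.6% with a 95% interval from 33.7% to 53.7%. The end of the transcript, where these libraries are read, shares 192 exonic bases with *Usp16* on the opposite strand. *Usp16* had 1692 counts over the 6 samples against 24955 for *Cct8*, and its own log2 fold change was -0.22 (SE 0.15, edgeR's quasi-likelihood test, adjusted p = 0.301).

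*Cct6a*, the zeta subunit gene (ENSMUSG00000029447, chromosome 5 from 129786998 to 129846371, plus strand), had the largest fold change. Its levels were 574, 496 and 509 CPM with Vehicle and 295, 324 and 241 CPM with AG636. The groups stood well apart, with the lowest Vehicle mouse at 1.53 times the highest AG636 mouse. The log2 fold change was -0.88 (SE 0.13, edgeR's quasi-likelihood test, adjusted p = 0.00408), or 45.6% lower (95% interval 33.3% to 55.6%). At the 5′ end of the gene, 452 exonic bases are shared with *Psph* on the other strand, which had 767 counts in all against 13683 and a log2 fold change of -0.62 (adjusted p = 0.0719 in edgeR's quasi-likelihood test). The testis paralog *Cct6b* had 9 counts in total over the 6 samples, so nearly all zeta subunit counts came from *Cct6a*.

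*Tcp1*, which encodes the alpha subunit and lies on chromosome 17 from 12915701 to 12925067 (ENSMUSG00000068039, plus strand), was the least abundant member. It had 262, 218 and 267 CPM in the Vehicle mice and 146, 174 and 121 CPM in the AG636 mice. This was the subunit with the widest spread relative to its level in the AG636 group (147 ± 26.2 CPM, SD, n = 3), yet the groups remained apart. Its log2 fold change of -0.76 (SE 0.15) had an adjusted p of 0.0100 in edgeR's quasi-likelihood test. The start of *Tcp1* shares 141 exonic bases with *Mrpl18*, a mitochondrial ribosomal protein gene transcribed the other way, at the end of the gene that these libraries do not capture. *Mrpl18* had 314 ± 21.8 CPM with Vehicle and 209 ± 16.98 CPM with AG636 (SD, n = 3), a log2 fold change of -0.58 (SE 0.12, edgeR's quasi-likelihood test, adjusted p = 0.00980). The 3′ part of *Tcp1* overlaps *Acat3* on the opposite strand by 571 exonic bases, and *Acat3* had 0 counts.

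*Cct3*, *Cct4* and *Cct7* fell by amounts close to the median of the list. *Cct3* (gamma, ENSMUSG00000001416, chromosome 3 from 88297116 to 88321767, plus strand) had 531, 517 and 489.6 CPM with Vehicle and 329, 325 and 299.95 CPM with AG636, and its values were the tightest of the 8 in both groups. *Cct4* (delta, ENSMUSG00000007739, chromosome 11 from 22990519 to 23003780, plus strand) had 456, 402 and 444 CPM against 263, 296 and 256 CPM. The eta subunit gene *Cct7* (ENSMUSG00000030007, chromosome 6 from 85451514 to 85468475, plus strand), second in abundance, had 757, 714 and 657 CPM against 478, 515 and 407 CPM. In none of them did the groups overlap, and the lowest Vehicle mouse had 1.49, 1.36 and 1.28 times the level of the highest AG636 mouse. The log2 fold changes were -0.69, -0.68 and -0.60 for *Cct3*, *Cct4* and *Cct7*, with SEs of 0.10, 0.11 and 0.12. In edgeR's quasi-likelihood test their adjusted p was 0.00408, 0.00529 and 0.00999. The start of *Cct7* shares 214 exonic bases with *Pradc1* on the opposite strand, which had 678 counts against 19746.

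The epsilon and beta subunit genes changed least. *Cct5*, on chromosome 15 from 31590800 to 31601804 (ENSMUSG00000022234, minus strand), had 414, 417 and 363 CPM with Vehicle and 283, 281 and 235 CPM with AG636. The epsilon subunit gene changed by -0.58 on the log2 scale (SE 0.12, edgeR's quasi-likelihood test, adjusted p = 0.0117). *Cct2*, on chromosome 10 from 117051001 to 117063814 (ENSMUSG00000034024, minus strand), had 445, 385 and 442 CPM against 292, 357 and 281 CPM. The groups of *Cct2* nearly touched, since its lowest Vehicle mouse was only 1.08 times its highest AG636 mouse. Its log2 fold change was -0.45 (SE 0.13, 95% interval -0.73 to -0.17, edgeR's quasi-likelihood test, adjusted p = 0.0318). *Cct2* was also the one subunit whose call depended on the setting. Its adjusted p was 0.0632 with library size alone, and 0.105, 0.116, 0.0760 and 0.0520 without AG636 replicate 1, AG636 replicate 3, Vehicle replicate 1 and Vehicle replicate 3 (edgeR's quasi-likelihood test). The other subunits kept an adjusted p of at most 0.0499 in each fit that left out one mouse.

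**Figure D2:**
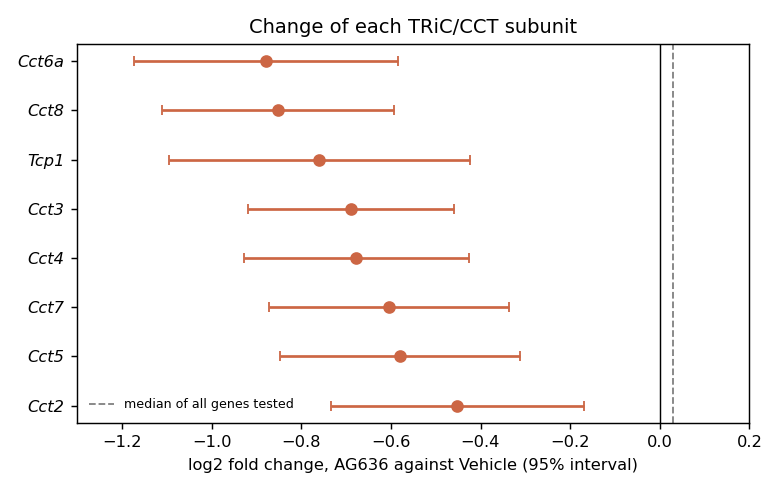
log2 fold change of each subunit, AG636 against Vehicle (x axis), with 95% intervals from edgeR's quasi-likelihood fit of 3 against 3 mice. The solid line is 0 and the dashed line the median of all genes tested, 0.03, and the 8 intervals, from *Cct6a* at -0.88 to *Cct2* at -0.45, end below both.

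The mice of a group differed from each other in the same way for many subunits. In the AG636 group replicate 3 had the lowest CPM for 8 of 8 subunits and replicate 2 the highest for 6. Replicate 3 also had the lowest summed level, 2302 CPM against 2631 and 2835 CPM in replicates 1 and 2. Among the Vehicle mice replicate 1 was highest for 5 subunits, and the summed levels were 4393, 4154 and 4045 CPM. The summed erythroid markers had the same order of mice as the summed subunits in both groups, with 4707, 3034 and 1649 CPM in the Vehicle mice and 2433, 3236 and 1946 CPM in the AG636 mice. The summed neutrophil markers were lowest in AG636 replicate 3 as well (2849 CPM), but highest in AG636 replicate 1 (5842 CPM), and lowest in Vehicle replicate 1 (1019 CPM). The part of these cells in the spread between mice was not tested. Without AG636 replicate 3 the median log2 fold change of the 8 subunits was -0.64, and without AG636 replicate 2 it was -0.73.

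Although each TRiC ring holds the subunits in equal number, their transcripts did not stand at equal levels. *Cct8* was the highest and *Tcp1* the lowest in each of the 6 mice, and the ratio of their CPM lay between 3.25 and 4.605. Both share exonic bases with an opposite-strand gene near the end that is read (*Usp16* for *Cct8*, *Acat3* for *Tcp1*). The use of strand in counting is not given, and the effect of these overlaps on the levels was not tested. Other differences between genes in capture or mapping were not tested either. In the Vehicle group the order by mean was *Cct8* (944 ± 65.7 CPM, SD, n = 3), *Cct7* (709 ± 50.3), *Cct6a* (526 ± 41.5), *Cct3* (512 ± 21.0), *Cct4* (434 ± 28.1), *Cct2* (424 ± 33.6), *Cct5* (398 ± 30.5) and *Tcp1* (249 ± 26.9). The ranges of *Cct6a* and *Cct3* overlapped, as did those of *Cct4* and *Cct2* and of *Cct2* and *Cct5*, while the other neighbours did not. In the AG636 group *Cct8* (523 ± 55.3 CPM) and *Cct7* (466 ± 54.9) had overlapping ranges, although *Cct8* was the higher of the pair in each mouse. There *Cct3* (318 ± 15.6 CPM), *Cct2* (310.1 ± 40.8), *Cct6a* (286 ± 41.9), *Cct4* (272 ± 21.3) and *Cct5* (266 ± 26.9) each overlapped with the next, and *Tcp1* (147 ± 26.2) lay under all of them. *Cct6a* thus stood at rank 3 with Vehicle and at rank 5 with AG636, and *Cct2* at ranks 6 and 4. Divided by exon length, a scale that suits libraries read along the whole transcript rather than at its end, *Cct8* remained highest (306 CPM per kb with Vehicle) and *Tcp1* lowest (49.5).

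The share of each subunit in the summed subunit counts shows whether the 8 transcripts kept their proportions. *Cct8* made up 21.7%, 24.2% and 21.6% of these counts in the Vehicle mice and 20.7%, 19.9% and 20.002% in the AG636 mice, a difference of -2.29 percentage points. Without one mouse this difference ran from -2.73 to -1.45 points, and it was smallest without Vehicle replicate 2. *Cct6a* went from 13.1%, 11.9% and 12.6% to 11.2%, 11.4% and 10.5%, a difference of -1.50 points. For both genes the AG636 shares lay under all Vehicle shares. In the other direction, *Cct2* had 10.1%, 9.28% and 10.9% with Vehicle and 11.1%, 12.6% and 12.2% with AG636, 1.86 points more. *Cct7* had 17.2%, 17.2% and 16.2% against 18.2%, 18.2% and 17.7%, 1.11 points more. The shares of *Cct5*, *Cct4*, *Cct3* and *Tcp1* overlapped between the groups, with differences of 0.82, 0.17, 0.12 and -0.29 points. For *Cct2*, *Cct6a*, *Cct7* and *Cct8* the exact permutation test gave a two-sided p of 0.1, the smallest possible for 3 against 3, and 0.20 after Benjamini-Hochberg adjustment over the 8 shares. With 3 mice against 3 this test cannot give a p under 0.05, no other test was run on the shares, and since shares sum to a whole they are not independent of each other.

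**Figure D3:**
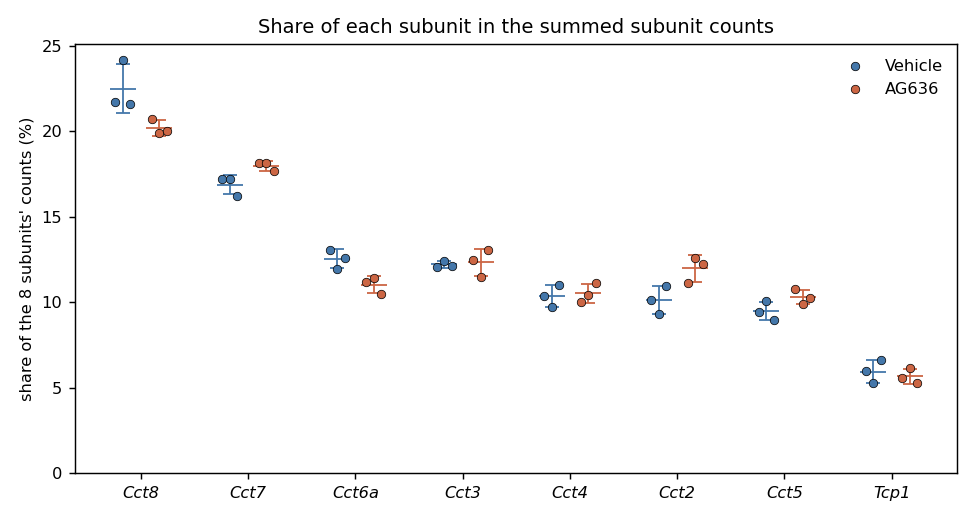
Share of each subunit in the summed counts of the 8 subunits (y axis, percent, linear from 0) in each mouse, in the order of the Vehicle levels. Points are mice, marks and bars are mean and SD (n = 3 per group), and the groups do not overlap for *Cct8* and *Cct6a*, where AG636 is lower, and for *Cct7* and *Cct2*, where it is higher.

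Partners, substrates and relatives of TRiC, with the mitochondrial chaperonin and the heat shock factors, were read from the same fit. They form 9 lists of 60 genes, 54 of which had enough counts to be tested. Of these 54, 8 were called lower and 1 higher, beside 11.0% and 10.3% of all genes tested, and the median log2 fold change was -0.10. The mitochondrial chaperonin, which does not work with TRiC, gave 2 of the 8 lower calls. Without AG636 replicate 1, AG636 replicate 3 or Vehicle replicate 2, 5 were called lower. Prefoldin, the hexameric cochaperone that delivers actin and tubulin to TRiC, was lower for part of its subunits. *Pfdn6* fell from 170, 173 and 176 CPM to 116, 104 and 104 CPM, and *Pfdn2* from 145, 135 and 126 CPM to 88.8, 92.8 and 73.2 CPM. Their log2 fold changes were -0.68 and -0.67 (SEs 0.11 and 0.13, adjusted p = 0.00522 and 0.00968 in edgeR's quasi-likelihood test), close to the median of the TRiC subunits. The other prefoldin subunits did not pass the threshold. Among them *Pfdn5* had a log2 fold change of 0.16, *Pfdn1* of -0.30 and *Vbp1* of 0.05 (adjusted p = 0.396, 0.106 and 0.778 in edgeR's quasi-likelihood test). The median over the 6 subunits was -0.30. Of the 3 genes for prefoldin-like proteins, 0 passed the threshold, with log2 fold changes from -0.10 to 0.02.

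Of 4 tested cofactors that bind TRiC, 1 was called lower and 0 higher, beside 11.0% and 10.3% of all genes tested. *Pdcd5*, whose product binds the chaperonin, had 127, 116 and 101 CPM with Vehicle and 86.2, 80.8 and 80.6 CPM with AG636. The difference was -0.48 on the log2 scale (SE 0.13, edgeR's quasi-likelihood test, adjusted p = 0.0282). The adjusted p of *Pdcd5* in the same test was between 0.0555 and 0.0921 in 5 of the 6 fits without one mouse. The exception was the fit without Vehicle replicate 3 (0.0184). *Txndc9*, *Pdcl* and *Pdcl3*, members of the phosducin-like family that assist TRiC, had log2 fold changes of -0.38, 0.41 and 0.12 (adjusted p = 0.0576, 0.137 and 0.763 in edgeR's quasi-likelihood test), and *Txndc9* passed the threshold without AG636 replicate 2 (0.0472). Among the 7 tubulin folding cofactors, which take over tubulin after its release from TRiC, 1 was called lower and 0 higher, beside the same shares. This was *Arl2*, at -0.54 (SE 0.17, edgeR's quasi-likelihood test, adjusted p = 0.0494). *Arl2* also lost its call in the same 5 fits (adjusted p 0.0696 to 0.145) and kept it without Vehicle replicate 3 (0.0395). Its adjusted p was 0.0814 with library size alone, 0.0502 with at least 10 counts required per sample and 0.0505 without a filter (edgeR's quasi-likelihood test). *Tbca*, *Tbcd* and *Tbcb* had log2 fold changes of 0.05, 0.09 and -0.21, and the list's median was 0.05.

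Actins and tubulins are the main substrates of TRiC. Of 15 such genes tested, 2 were lower and 0 higher, beside 11.0% and 10.3% of all genes, with a median log2 fold change of -0.22. *Tubb5*, the most abundant beta tubulin gene in these libraries, had 2595, 2556 and 2121 CPM with Vehicle and 1447, 1730 and 1435 CPM with AG636. Its log2 fold change of -0.66 (SE 0.12, edgeR's quasi-likelihood test, adjusted p = 0.00690) was close to that of the chaperonin. *Tubb4b* was lower by less, at -0.43 (SE 0.13, adjusted p = 0.0378 in edgeR's quasi-likelihood test), and without one mouse kept its call in 1 fit of 6, that without Vehicle replicate 3 (0.0106, otherwise 0.0599 to 0.122). With library size alone its adjusted p was 0.0722 (edgeR's quasi-likelihood test). The alpha tubulin *Tuba1b* had -0.30 (SE 0.10, adjusted p = 0.0554 in edgeR's quasi-likelihood test), and passed the threshold with limma-voom (0.0440), without a filter (0.0449) and without Vehicle replicate 3 (0.0264). Another alpha tubulin gene, *Tuba1a*, went the other way, at 0.66 (SE 0.21, adjusted p = 0.0519 in edgeR's quasi-likelihood test). Of the 15 genes, 8 had a log2 fold change below 0. *Actb*, at 7540 ± 1059 CPM with Vehicle and 7922 ± 860 CPM with AG636 (SD, n = 3), and *Actg1* had log2 fold changes of 0.07 and 0.09 (adjusted p = 0.707 and 0.735 in edgeR's quasi-likelihood test). Tubulin and actin genes have close paralogs, and how reads that map to several of them were treated is not given in the sources used here.

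Among 12 other substrates, most of them WD40 proteins or cell cycle regulators, 1 gene was called higher and 0 lower, beside 10.3% and 11.0% of all genes tested. This was *Stat3*, a signal-dependent transcription factor, with 179, 199 and 265 CPM in the Vehicle mice and 312, 360 and 392 CPM in the AG636 mice (log2 fold change 0.73, SE 0.16, adjusted p = 0.0135 in edgeR's quasi-likelihood test). Without AG636 replicate 3 its adjusted p was 0.0546 and without Vehicle replicate 2 it was 0.0576 (edgeR's quasi-likelihood test). *Gnb2*, *Cdc20* and *Plk1* had log2 fold changes of 0.02, 0.02 and -0.11 (SEs 0.12, 0.13 and 0.15).

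The mitochondrial chaperonin, a distant relative of TRiC, fell further than any TRiC subunit in these values. *Hspd1*, encoding its ring subunit HSP60, had 1058, 917 and 826 CPM with Vehicle and 374, 465 and 305 CPM with AG636. *Hspe1*, encoding the lid HSP10, had 797, 644 and 672 CPM against 336, 356 and 291 CPM. The log2 fold changes were -1.29 and -1.10 (SEs 0.16 and 0.13, adjusted p = 0.00245 and 0.00203 in edgeR's quasi-likelihood test), and their difference from those of the TRiC subunits was not tested. Of 3 chaperonin relatives tested among 5, none was called, beside 11% of all genes tested called lower and 10.3% higher. Their median log2 fold change was 0.01. *Mkks*, a chaperonin-like protein that assists assembly of the ciliary BBSome, had 0.65 (SE 0.22, adjusted p = 0.0598 in edgeR's quasi-likelihood test, 0.0383 with library size alone). *Bbs12* went the other way, at -0.65 (SE 0.43, adjusted p = 0.302 in edgeR's quasi-likelihood test), and *Bbs10* had 0.01. *Cct8l1* had 0 counts. *Hsf1* and *Hsf2*, the heat shock factors that bind chaperone promoters, had log2 fold changes of -0.28 and -0.09 (SEs 0.22 and 0.23, adjusted p = 0.376 and 0.801 in edgeR's quasi-likelihood test).

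**Figure D4:**
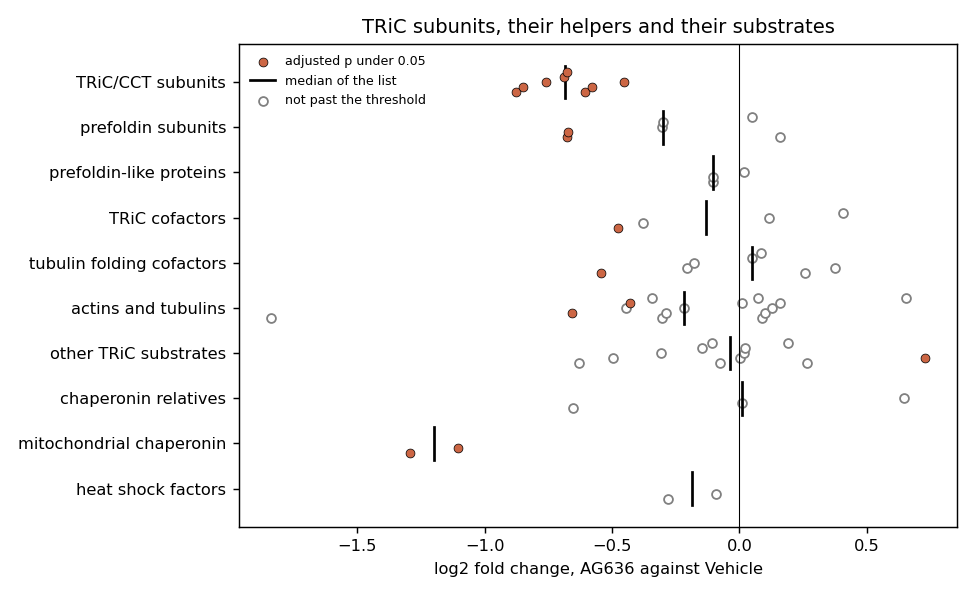
log2 fold change, AG636 against Vehicle (x axis), of every tested gene in the list of TRiC subunits and 9 lists of related genes (rows). Filled points passed an adjusted p of 0.05, open points did not, and vertical bars are list medians, at -0.68 for TRiC, -0.30 for prefoldin, -0.22 for actins and tubulins and -1.20 for the mitochondrial chaperonin.

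The genes whose pattern over the 6 mice was most like the mean log2 CPM of the 8 subunits were *Ranbp2*, *Usp14*, *Cdv3*, *Ncl* and *Ufm1*. Their Pearson correlations with it were 0.999, 0.998, 0.998, 0.997 and 0.997 (n = 6). These are the highest of all genes tested, and each rests on the difference between the groups as well as on the mice within them. *Ncl*, encoding the nucleolar protein nucleolin, had 2874, 2471 and 2466 CPM with Vehicle and 1366, 1617 and 1136 CPM with AG636. As with the subunits, AG636 replicate 3 had the lowest and AG636 replicate 2 the highest level of the treated mice. The other 4 genes shared this order, at lower levels, with log2 fold changes from -0.82 for *Cdv3* to -0.43 for *Usp14*.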

How the data were processed

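RNAseq counts of sorted I1DN AML cells from 3 Vehicle and 3 AG636 mice were analysed. The authors deposited raw read counts per gene. Per the methods of the study, 3′ mRNA libraries (QuantSeq) were sequenced, and reads went through cutadapt for trimming, HISAT2 for mapping (mm10) and subread for counting. The annotation release, the use of strand and the treatment of reads mapping to several places are not given in the sources used here. The exon length was used in 1 comparison of levels.

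Symbols came from GENCODE vM21 (54723 of 54838 identifiers). Genes were kept with filterByExpr (minimum count 10, minimum total 15), scaled with TMM, and compared with edgeR 4.0.16 (quasi-likelihood test, R 4.3.3) with Benjamini-Hochberg adjustment over 11092 genes and a threshold of 0.05. The standard error is the log2 fold change divided by the root of F. Totals of 4634963 to 7906589 counts place a level of 3 counts at 0.379 to 0.647 CPM of the unscaled library, and such floors cover counting error only. The members and the lists were chosen with earlier results of these data known. Named from the lists were all genes past the threshold, up to 3 others by CPM, and *Tuba1a* for its opposite direction. From the whole table the 5 genes most correlated with the members were named, and genes overlapping a member. The samples of a group differed by more than sampling noise (chi-square per degree of freedom 6.22 to 14.6), so each was counted once. Alternatives were DESeq2 1.42.0, limma-voom (limma 3.58.1), median-of-ratios factors, library size alone, no filter, a minimum of 10 counts per sample, a replicate block and leaving out each mouse.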

Additional observations from a re-analysis of the deposited data

How the results depend on the processing

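Every subunit was lower under each of the 13 alternatives, and the number called was 8, or 7 where *Cct2* lost its call (library size alone, the replicate block and 4 of the 6 fits without one mouse). The subunits' median log2 fold change ran from -0.73 to -0.64 without one mouse and was -0.59 with library size alone, which gave 913 genes lower and 1483 higher in the whole table against 1222 and 1146 with TMM. Leaving out a mouse moved these totals to between 452 and 1298 lower and 399 and 1074 higher, with 452 and 399 without AG636 replicate 3, 630 and 605 without AG636 replicate 1, 692 and 500 without Vehicle replicate 2, and 701 and 524 without Vehicle replicate 1. The cause was not tested, and fewer samples entered these fits. Over the 9 lists of related genes, 5 to 10 were called lower and 0 to 2 higher without one mouse. With DESeq2, limma-voom, no filter or the replicate block 2 were called higher, and 3 with library size alone. Same-numbered samples came from different mice, so the number was not used as a pairing in the main fit. Deviations from the group mean had correlations of -0.06, -0.18 and 0.22 between same-numbered samples and -0.38 to 0.36 between the others. With 3 mice per group these values cannot show whether same-numbered samples shared a processing step. With the replicate block the adjusted p of *Cct2* was 0.0572, that of *Tubb4b* 0.0562 and that of *Arl2* 0.0759 (edgeR's quasi-likelihood test). Small changes that did not pass the threshold turned direction in some fits. Without a filter *Cdc20* had -0.0077 and *Gnb2* -0.0019. Without one mouse the log2 fold change ran from -0.054 to 0.15 for *Actb*, -0.050 to 0.24 for *Actg1*, -0.078 to 0.11 for *Cdc20*, -0.083 to 0.10 for *Gnb2*, -0.25 to 0.079 for *Hsf2*, -0.043 to 0.36 for *Pdcl3*, -0.23 to 0.010 for *Plk1*, -0.023 to 0.11 for *Tbca* and -0.037 to 0.24 for *Tbcd*. With 3 mice per group, the median standard error of a subunit's log2 fold change was 0.12, against 0.20 over all genes.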
